A study of Mus musculus with 3 samples.

Results

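Resident Kupffer cells, the macrophages that live in the liver sinusoids, were picked out nucleus by nucleus from 3 single-nucleus RNA libraries of mouse liver. A nucleus was taken as resident Kupffer when it had at least 500 UMIs (unique molecular identifiers, each standing for 1 captured RNA molecule), at most 5% mitochondrial UMIs, and at least 4 UMIs over the 6 markers Clec4f, Cd5l, Adgre1, Timd4, Marco and Vsig4. Those markers also had to make up at least 0.1% of its UMIs. They had to exceed its UMIs over 7 genes of recruited macrophages (Lyz2, Gpnmb, Cd74, H2-Ab1, Ccr2, Itgax and Trem2) and its UMIs over the endothelial genes Stab2 and Ptprb. The rule found 412 nuclei among 21456 kept. It was written with measured values in view, so the levels of its 15 genes are given below as a description and support nothing.

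Kupffer cells are seeded before birth and renew themselves in place, and when their niche empties, monocytes from the blood can enter it and take on the same identity. They line the sinusoids, take up particles, old red blood cells and lipoproteins from portal blood, and recycle the iron and cholesterol they take in. In steatohepatitis a second population of recruited macrophages, marked by Gpnmb, Trem2 and Spp1 and called lipid-associated, appears beside them.

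The livers came from male C57BL/6 mice that entered the study at 8 weeks of age. The SD mice ate a standard diet. The MASLD mice (metabolic dysfunction-associated steatotic liver disease) were fed for 18 weeks with a disease-inducing diet and drank sugar water with 18.9 g/L glucose and 23.1 g/L fructose. The Aza-TdC mice had that same diet and drink and received, from week 14 to week 18, a daily oral dose of 2 mg/kg of 5-aza-4′-thio-2′-deoxycytidine, a cytidine analogue that is built into DNA and depletes the maintenance DNA methyltransferase DNMT1. The number of animals behind a library was not given in the sources used here. Each group was 1 library made from 120 mg of frozen liver, so no difference between groups has a replicate check and no p-value is given. Intervals are exact 95% intervals and cover counting error only. Differences between libraries, animals and treatments cannot be told apart.

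The libraries held 7139 barcodes (SD), 6928 (MASLD) and 7598 (Aza-TdC), with 45162618, 43569644 and 51789068 UMIs, and the filter left out 0, 202 and 7 of them. The resident Kupffer nuclei held 45840, 361914 and 996544 UMIs in the same order. Their median depth was alike, at 2616, 2808 and 2946 UMIs per nucleus, against 5854, 6090 and 6512 in all other kept nuclei. Their median mitochondrial share was 0.248%, 0.522% and 0.204%. The shallowest SD barcode had 1546 UMIs, and 0, 17 and 52 Kupffer nuclei lay under that depth. Libraries shared 9 to 15 cell barcodes in pairs, and 1 barcode belonged to a Kupffer nucleus in both SD and Aza-TdC. Hepatocyte RNA was present in them: 19 hepatocyte markers summed to 14529, 13826 and 11949 UMIs per 1000000 UMIs of those nuclei (CPM), and the median over the markers of their ratio to the level in all other nuclei was 0.534, 0.372 and 0.371.

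The promoters of 3 cell cycle genes and of 1 marker are shown first, because genes of the cell cycle differed together between the libraries. Each runs from 250 bases before to 50 bases after the transcription start on the gene's strand, 5′ to 3′ (RefSeq, GRCm38.p6). Top2a (chr11:99024140-99024439, minus strand) encodes the topoisomerase that untangles chromosomes, Mki67 (chr7:135716330-135716629, minus strand) the Ki-67 protein of dividing cells, and Kif11 (chr19:37376132-37376431, plus strand) a motor of the mitotic spindle. Clec4f (chr6:83656067-83656366, minus strand) encodes the lectin that defines mouse Kupffer cells. Capitals mark TTTGAA and also CCAAT where these stood on either strand, so that on the other strand the first reads TTCAAA and the second ATTGG. GAGGAAGT was searched as well and was in none of the 4 windows. No marked stretches overlap.
Top2a: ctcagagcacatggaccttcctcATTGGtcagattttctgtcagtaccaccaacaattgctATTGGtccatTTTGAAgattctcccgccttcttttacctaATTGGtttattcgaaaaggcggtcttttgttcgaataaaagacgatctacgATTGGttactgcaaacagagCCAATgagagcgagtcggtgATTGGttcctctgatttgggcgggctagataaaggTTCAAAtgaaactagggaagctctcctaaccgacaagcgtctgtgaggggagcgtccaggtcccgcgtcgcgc
Mki67: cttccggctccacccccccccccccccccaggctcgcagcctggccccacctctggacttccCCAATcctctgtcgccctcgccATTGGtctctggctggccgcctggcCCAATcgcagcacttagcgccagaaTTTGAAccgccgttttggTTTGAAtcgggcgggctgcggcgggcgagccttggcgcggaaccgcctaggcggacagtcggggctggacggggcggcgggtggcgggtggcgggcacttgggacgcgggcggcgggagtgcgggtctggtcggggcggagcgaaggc
Kif11: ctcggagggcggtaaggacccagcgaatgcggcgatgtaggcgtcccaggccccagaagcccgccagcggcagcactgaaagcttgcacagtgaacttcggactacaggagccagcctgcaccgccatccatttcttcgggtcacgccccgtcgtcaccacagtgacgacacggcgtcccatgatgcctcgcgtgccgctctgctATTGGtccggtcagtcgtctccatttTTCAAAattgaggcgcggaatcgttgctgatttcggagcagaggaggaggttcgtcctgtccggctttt
Clec4f: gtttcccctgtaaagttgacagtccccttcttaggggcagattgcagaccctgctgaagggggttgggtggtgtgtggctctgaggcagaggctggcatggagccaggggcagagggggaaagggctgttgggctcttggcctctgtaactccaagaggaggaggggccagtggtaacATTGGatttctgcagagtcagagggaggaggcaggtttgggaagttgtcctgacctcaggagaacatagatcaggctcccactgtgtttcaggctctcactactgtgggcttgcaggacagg

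TTTGAA is the core of the cell cycle homology region and CCAAT the CCAAT box, both known from promoters of mitotic genes, and GAGGAAGT is a form of the motif of PU.1, a macrophage transcription factor. The Top2a window held 2 TTTGAA and 6 CCAAT matches, Mki67 2 and 3, Kif11 1 of each, and Clec4f 1 CCAAT match alone. Of 27025 promoters of the same length, 18.1% held TTTGAA, 37.9% CCAAT, 7.12% both and 3.28% GAGGAAGT. Of the 27 cell cycle genes listed, 24 had a promoter in the table, of which 12 held TTTGAA, 21 CCAAT and 10 both. A match is a run of letters and not a measured site.

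Resident Kupffer nuclei were a small class in SD and a larger one in both other libraries. The 3 libraries, in the order SD, MASLD and Aza-TdC, held 16, 112 and 284 of them, or 0.224% (0.128 to 0.364), 1.67% (1.37 to 2.00) and 3.74% (3.33 to 4.19) of kept nuclei. The MASLD share was 7.43 times the SD share (4.38 to 13.5), and the Aza-TdC share 2.25 times the MASLD share (1.80 to 2.82). The 3 intervals of the shares did not overlap. Since these are shares of all nuclei, more Kupffer nuclei and fewer nuclei of other types per piece of tissue cannot be told apart.

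Nuclei on the recruited side had their highest share in MASLD. A mirror rule (at least 4 UMIs over the 7 recruited genes, at least 0.1% of UMIs, and more than over the markers and over the endothelial genes) found 9, 110 and 24 nuclei, or 0.126%, 1.64% and 0.316%. The recruited share in MASLD was 12.97 times that in SD (6.59 to 29.1) and in Aza-TdC it was 0.193 times that in MASLD (0.119 to 0.303). Of both kinds together, resident Kupffer nuclei were 64.0% (42.5 to 82.0) in SD and 50.5% (43.7 to 57.2) in MASLD, and with treatment 92.2% (88.6 to 94.9). By these rules, resident and recruited nuclei were thus about equal in number in MASLD, and resident ones were in the large majority in Aza-TdC. The mirror rule asked for no further macrophage gene and, beyond the endothelial clause, kept out no other cell type. Its nuclei were therefore not shown to be macrophages.

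**Figure D1:**
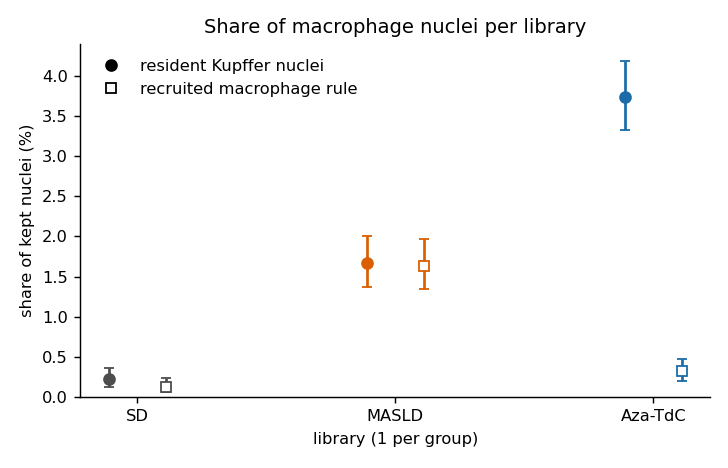
Share of kept nuclei (percent) that met the resident Kupffer rule and the recruited macrophage rule in each library, as points with exact 95% intervals. The resident share was 0.224%, 1.67% and 3.74% in SD, MASLD and Aza-TdC, while the recruited share was highest in MASLD at 1.64%.

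The edge of the rule was thin in numbers. Exactly 4 marker UMIs were seen in 0, 3 and 8 of the nuclei taken, and 1, 7 and 6 nuclei just outside had 3. The recruited clause left out 0, 23 and 4 nuclei that met the marker clauses, and the endothelial clause 0. Most of the nuclei taken were far inside: the median was 21.5, 18 and 25 marker UMIs, with a highest value of 47, 62 and 125. At least 4 of the 6 markers were seen in most nuclei, and all 6 in 0, 4 and 56.

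The markers themselves did not keep 1 proportion across the libraries. Clec4f stood at 3818 CPM (175 UMIs), 2539 (919) and 3491 (3479) in SD, MASLD and Aza-TdC, against 1.33, 5.39 and 8.61 CPM in all other nuclei. Cd5l, a secreted scavenger protein that inhibits apoptosis, stood at 611 CPM (28 UMIs), 2144 (776) and 2774 (2764), low in SD alone. Timd4, the phosphatidylserine receptor typical of long-resident Kupffer cells, stood at 567 CPM (26 UMIs), 315 (114) and 597 (595), lowest in MASLD. Marco, a scavenger receptor for bacteria, stood at 131 CPM (6 UMIs), 63.6 (23) and 325 (324), highest in Aza-TdC. Vsig4, the complement receptor that clears opsonised particles, stood at 1003, 829 and 892 CPM, and Adgre1, which encodes F4/80, at 851, 699 and 920, with little spread. Over nuclei thinned to 1500 UMIs, Timd4 was seen in 62.5% (35.4 to 84.8) of 16 SD nuclei, 33.0% (23.8 to 43.3) of 97 MASLD nuclei and 52.97% (46.4 to 59.5) of 236 Aza-TdC nuclei, and in 0 of 1000 other nuclei of each library.

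**Figure D2:**
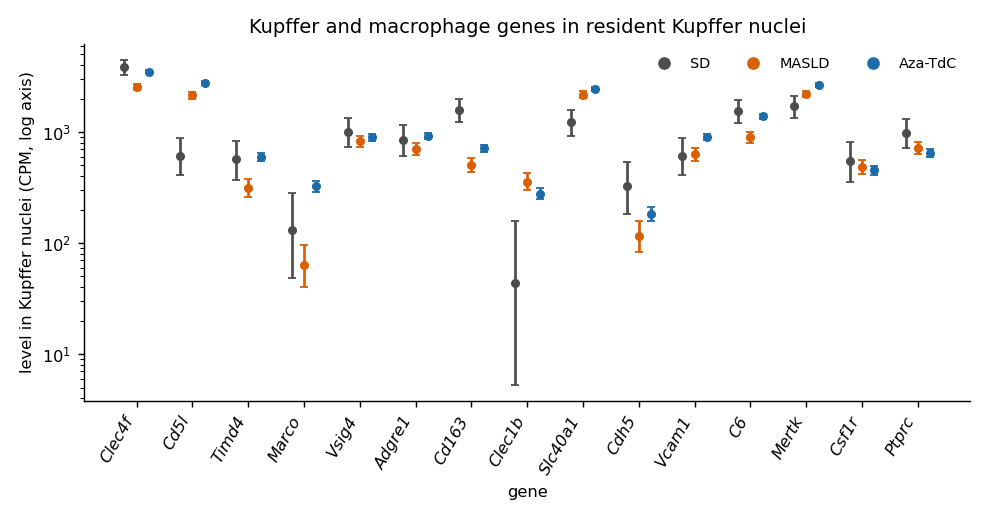
Level (CPM, log axis) of the rule's markers and other Kupffer genes in the resident Kupffer nuclei of each library, as points with exact 95% Poisson intervals. Clec4f lay between 2539 and 3818 CPM in the 3 libraries, Cd5l was low in SD at 611 CPM, and Cd163 was highest in SD at 1571 CPM.

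Genes that the rule did not use included known Kupffer genes at the top. The ranking is against all other kept nuclei together, so it does not tell Kupffer genes from genes that macrophages share. Ranked by the median over libraries of their log2 ratio to all other nuclei, the 15 leading genes included Kcnj16 (10.96), a potassium channel gene, with 502, 511 and 609 CPM. Lilra5 (9.85), an activating immunoglobulin-like receptor gene, had 153, 193 and 143 CPM. Cd163 (9.45) encodes the receptor for haptoglobin-bound haemoglobin and Ksr2 (9.41) a scaffold of the MAP kinase cascade. Tmem26, Kcna2, Cd86 (a co-stimulatory ligand of T cells), Slc7a8, Tmem117, Siglec1 (the sialic acid receptor CD169) and Btbd11 made up the rest, beside Timd4, Adgre1, Vsig4 and Clec4f of the rule itself. Of the other cell types, B cell markers summed to 1243, 1152 and 980 CPM against 425, 533 and 184 in all other nuclei. In the Kupffer nuclei this was mostly Bank1, with 39, 337 and 858 UMIs of 57, 417 and 977, and Pax5, the factor that defines B cells, was at 0 in all 3 libraries. Of the T and NK cell list, 13, 3 and 10 of 14 markers were at 0, with sums of 196, 169 and 128 CPM. The 14 markers of sinusoidal endothelium summed to 3534, 3335 and 3741 CPM, of which Ptprm held 84, 666 and 2494 UMIs and Mrc1, a mannose receptor gene that macrophages also express, 64, 461 and 1099, out of 162, 1207 and 3728. Stellate cell markers summed to 131, 602 and 82.3 CPM, and 178 of the 218 UMIs in MASLD lay in 3 nuclei.

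The first comparison set the MASLD library against the SD library. A gene was called when its log2 ratio of CPM was at least 1 or at most -1, its interval left out 0, and it had at least 20 UMIs over both libraries. Between MASLD and SD, 4652 genes were tested, of which 5.67% were called higher and 5.89% lower, and the median log2 ratio of all of them was 0.15. With median-ratio scaling, which divides the ratios by the median ratio of 332 well counted genes (-0.32 on the log2 scale) and so raises every ratio, the calls were 518 higher and 124 lower in place of 264 and 274. The SD side rests on 16 nuclei, so 21.8 CPM there stands for 1 UMI. Among the 1872 tested genes that stood at least 2 times above the other nuclei in either library, 8.92% were higher and 7.05% lower.

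Complement C1q and lysosomal genes were higher in MASLD, while few Kupffer identity genes were called, and in both directions. C1qa, a chain of the C1q molecule that tags dead cells and synapses, had 8 UMIs or 175 CPM (75.4 to 344) in SD and 859 CPM (767 to 960) in MASLD, a log2 ratio of 2.30 (1.30 to 3.52). C1qb had 218 and 928 CPM (2.09) and C1qc 153 and 655 CPM (2.10). All 3 chains rose, as did Cybb, the NADPH oxidase subunit (218 and 522 CPM, 1.26). They were the called genes, 4 higher and 0 lower, among 19 tested genes of the macrophage core list, whose median was 0.41.

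Of 17 tested Kupffer identity genes outside the rule, 2 were higher and 3 lower, with a median of 0.19. Cd163 had 72 UMIs or 1571 CPM (1229 to 1978) in SD and 183 UMIs or 506 CPM (435 to 584) in MASLD, so it fell by 1.64 on the log2 scale (interval -2.04 to -1.22). Slc11a1, the phagosomal metal transporter, had 349 and 144 CPM (-1.28, a call that ended with median-ratio scaling), and Cdh5, a cadherin gene shared with endothelium, 327 and 116 CPM (-1.50). Clec1b, the podoplanin receptor gene, had 2 UMIs or 43.6 CPM in SD and 356 CPM in MASLD (3.03, 1.15 to 6.09), and Slc16a9, a carnitine transporter gene, 43.6 and 199 CPM (2.19). Slc40a1, the iron exporter ferroportin, had 1222 and 2169 CPM (0.83) and did not pass the call. Csf1r, the receptor for the survival factor CSF1, had 545 and 484 CPM.

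Lipid and lysosome genes stood mostly on the higher side. Of 14 tested genes of the lipid-associated macrophage list, 8 were higher and 0 lower. The median was 2.41, or 0.82 with the 4 genes that had 0 UMIs in SD set at their bound (the floor is 3 UMIs per library). Lpl, lipoprotein lipase, had 1 UMI or 21.8 CPM in SD and 343 CPM in MASLD (3.97, 1.47 to 9.29). Ctsd, the lysosomal protease cathepsin D, had 4 UMIs or 87.3 CPM and 638 CPM (2.87, 1.495 to 4.76). Lipa, the acid lipase that frees cholesterol from lipoproteins, had 87.3 and 337 CPM (1.95), and Plin2, the lipid droplet coat protein, 87.3 and 293 CPM (1.75). Ctsl, Mmp12 and Atp6v0d2 had 0 UMIs in SD and were at least 1.44-fold, 1.31-fold and 1.94-fold higher in MASLD. The 8 genes rose from SD levels of 0 to 4 UMIs each. With free RNA subtracted 5 of 13 were higher, and 0 lower.

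The lysosome list gave the same direction, 7 higher and 0 lower of 23 tested, with a median of 0.93 (0.86 with bounds). The lists overlap, and Ctsd, Ctsl and Lipa were called higher in both. In SD these genes, and Grn as well, rested on few UMIs or none. Grn, the lysosomal cofactor progranulin, had 87.3 and 636 CPM (2.87, 1.49 to 4.75), and Psap, the precursor of the saposins that help to degrade sphingolipids, had 15 UMIs or 327 CPM and 1083 CPM (1.73, 0.99 to 2.58). Apoe, the apolipoprotein that carries cholesterol out of macrophages, had 56 UMIs or 1222 CPM (923 to 1586) in SD and 1874 UMIs or 5178 CPM (4946 to 5418) in MASLD, so it rose by 2.08 (1.70 to 2.49). Apoe also went from 805 to 2170 CPM in all other nuclei, and with free RNA subtracted in proportion to the hepatocyte markers its ratio in the Kupffer nuclei was 2.28. With Lipa it was 1 of 2 called genes of 16 in the LXR and cholesterol efflux list, the sterol-sensing arm of the cell.

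In the wider lipid handling list 7 genes were higher and 1 lower of 17. Lpl, Plin2 and Cd36 among them were also higher genes of the lipid-associated macrophage list. Cd36, the fatty acid receptor, had 43.6 CPM in SD and 478 in MASLD (3.45, 1.58 to 6.51), and Scd1, the desaturase that makes monounsaturated fatty acids, 109 and 1340 CPM (3.62, 2.39 to 5.25). The other nuclei moved the same way, with Cd36 at 9.86 and 344 CPM and Scd1 at 82.1 and 942 CPM. Elovl6, a fatty acid elongase, went from 785 to 52.5 CPM (-3.90), on 36 UMIs in 4 SD nuclei, and in the other nuclei from 928 to 161 CPM. The list as a whole had 2792, 4714 and 3287 CPM in Kupffer nuclei of SD, MASLD and Aza-TdC and more, 5933, 9196 and 8181 CPM, in all other nuclei. With free RNA subtracted, 6 genes of the list remained testable, of which 4 were higher (Plin2, Lpl, Cd36 and Scd1) and 0 lower.

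**Figure D3:**
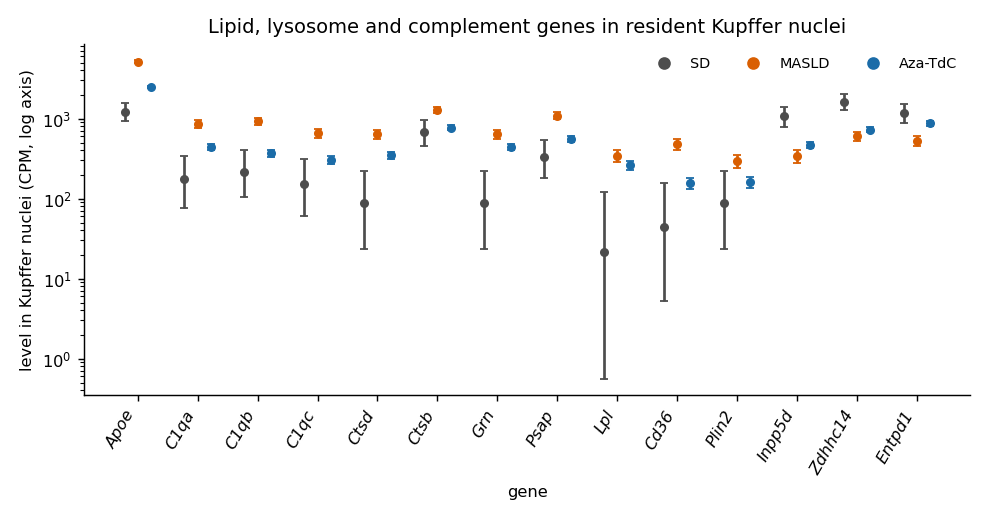
Level (CPM, log axis) of lipid and lysosome genes in the resident Kupffer nuclei of each library, as points with exact 95% Poisson intervals. Apoe stood at 1222, 5178 and 2480 CPM and Ctsd at 87.3, 638 and 347 CPM in SD, MASLD and Aza-TdC, and the SD intervals of Lpl and Cd36 are wide, as they rest on 1 and 2 UMIs.

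By the ranking over all genes, those farthest above SD also held Cst3, a protease inhibitor gene, with 1 UMI or 21.8 CPM in SD and 334 CPM in MASLD (3.94). Hbb-bs, a beta globin gene, had 21.8 and 323 CPM (3.89), and red blood cell markers summed to 21.8, 779 and 107 CPM in Kupffer nuclei of SD, MASLD and Aza-TdC against 38.8, 379 and 62.8 in all other nuclei. G2e3, a ubiquitin ligase gene of the cell cycle, and Cbx5, which encodes the heterochromatin protein HP1 alpha, had 0 UMIs in SD and were at least 3.04-fold and 2.83-fold higher. Below SD stood Inpp5d, the phosphatase SHIP1 that restrains signalling in blood cells (1069 and 337 CPM, -1.67, -2.15 to -1.16), and Zdhhc14, a palmitoyl transferase gene (1614 and 600 CPM, -1.43). Dapk1, Entpd1, Adap2 and Cmip were also called lower (-1.09 to -1.24), and none of these 4 calls held with median-ratio scaling.

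The other lists had few calls between SD and MASLD. The iron and heme list had 2 genes higher (Ftl1, 349 and 923 CPM, and Fth1, 109 and 558 CPM, the ferritin chains) and 2 lower (Cd163 and Slc11a1) of 13. The inflammation list had 0 higher and 1 lower of 6 (Nfkb1, 393 and 158 CPM), and the interferon list 1 and 1 of 15 (Bst2 higher, Samhd1 lower at 524 and 229 CPM), and the lower calls of Nfkb1 and Samhd1 ended with median-ratio scaling. Antigen presentation had 2 higher (H2-Aa and H2-K1) and 0 lower of 12, scavenger and efferocytosis genes 2 and 3 of 17, complement 3 and 1 of 11, and BMP, TGF-beta and Notch genes 1 and 1 of 16. The 3 higher complement genes were the C1q chains already counted in the macrophage core list. Cell death and autophagy had 1 and 0 of 15, immediate early genes 0 and 1 of 6, recruited monocyte genes 2 and 1 of 5 and DNA methylation genes 0 and 0 of 9. The recruited genes of the rule summed to 305, 1235 and 463 CPM in SD, MASLD and Aza-TdC even though the rule keeps them below the markers.

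Cell cycle transcripts were high in MASLD and low in Aza-TdC. The 27 genes of the list summed to 633 CPM (424 to 909) in SD and 3647 CPM (3453 to 3849) in MASLD, but to 190 CPM (164 to 219) in Aza-TdC. These intervals treat UMIs as independent and leave out the spread between nuclei. In SD 1 nucleus held 18 of the 29 UMIs. Nuclei with 3 or more of these UMIs were 2 of 16 in SD (12.5%, 1.55 to 38.4), 59 of 112 in MASLD (52.7%, 43.02 to 62.2), and for Aza-TdC 14 of 284 (4.93%, 2.72 to 8.13). Most MASLD Kupffer nuclei and few of those in Aza-TdC thus carried the transcripts. Thinned to 1500 UMIs, the shares were 12.5% of 16, 53.6% of 97 and 2.12% of 236 nuclei, so the order did not turn with depth.

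The same count did not follow that order in other cells of the libraries. Among recruited-rule nuclei, 5 of 9, 23 of 110 (20.9%) and 5 of 24 (20.8%) in the 3 libraries had 3 or more of these UMIs, with 4542, 1525 and 3217 CPM. Sinusoidal endothelial nuclei chosen by a mirror rule had 6.20%, 4.47% and 7.14%, with 606, 468 and 549 CPM. All other kept nuclei had 5.22%, 7.68% and 8.28%, with 116, 145 and 137 CPM and medians of 5854 to 6512 UMIs. In Aza-TdC the resident Kupffer level of 190 CPM was nearest to the 137 CPM of all other nuclei. Whether the change from MASLD to Aza-TdC differed between resident and recruited nuclei was not tested, since each library is 1 sample.

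**Figure D4:**
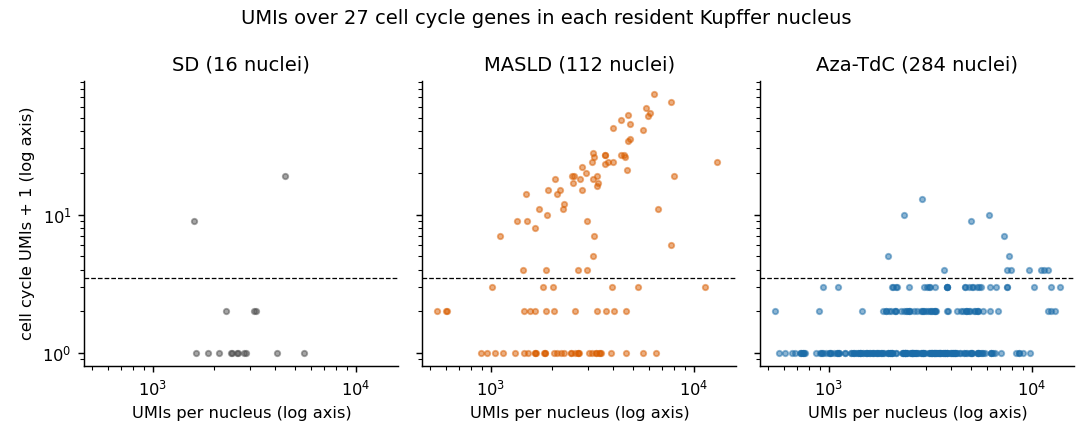
Cell cycle UMIs per resident Kupffer nucleus plus 1 (log axis), 1 point per nucleus, in each library, with a dashed line between nuclei under 3 and nuclei with 3 or more. In MASLD 59 of 112 nuclei lie above the line, in SD 2 of 16 and in Aza-TdC 14 of 284.

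Gene by gene, Mki67 had 2 UMIs in SD and 123 in MASLD (340 CPM, in 45 nuclei), but 8 with treatment (8.03 CPM, in 7 nuclei). Its log2 ratio was 2.96 (1.08 to 6.02) for MASLD against SD and -5.40 (-6.65 to -4.38) for Aza-TdC against MASLD. Top2a had 3, 118 and 3 UMIs, or 65.5, 326 and 3.01 CPM, and Kif11, also shown above, 1, 69 and 1. Both fell between MASLD and Aza-TdC, by 6.76 (interval -9.06 to -5.18) and 7.57 (-12.9 to -5.04). Knl1, a kinetochore scaffold gene, had 5, 111 and 0 UMIs and was at least 102-fold lower in Aza-TdC. Kif15, a spindle motor gene, had 0, 125 and 8 UMIs, and Atad2, a chromatin gene of S phase, 0, 123 and 38, at least 5.28-fold and 5.19-fold higher in MASLD than in SD. Ezh2, the methyltransferase of Polycomb complex PRC2, had 43.6, 287 and 31.1 CPM and Diaph3, a formin gene of cytokinesis, 109, 412 and 16.1 CPM. Of the 27 listed genes, 16 were tested between SD and MASLD, and 10 were higher and 0 lower. Their median was 2.75 (1.97 with the 5 genes at 0 in SD at their bound). The list held 29 UMIs in SD and 1320 in MASLD, so the 16 reached the minimum count mostly through MASLD. That filter favours higher calls, whereas the summed levels of the list need no minimum.

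The second comparison set the Aza-TdC library against the MASLD library, both on the same diet. Between Aza-TdC and MASLD, 8635 genes were tested, of which 5.14% were called higher and 6.96% lower, and the median log2 ratio of all was 0.01. Among the 2643 tested genes at least 2 times above the other nuclei in either library, 7.57% were higher and 13.9% lower. All 19 tested cell cycle genes, of 27 listed, were called lower, with a median of -4.66. Of the 19, 3 were at 0 in Aza-TdC and set at their bound. The 27 genes held 1320 UMIs in MASLD and 189 in Aza-TdC, so most of the 19 reached the minimum count through MASLD. That filter favours lower calls, so the count of 19 adds little by itself. The sum over all 27 genes, which needs no minimum, went from 3647 to 190 CPM. The lowest genes by the ranking were of the same kind: Prc1 and Racgap1 of the central spindle, and Aspm of the spindle pole, had 0 UMIs in Aza-TdC and were at least 45.0-fold, 35.8-fold and 29.4-fold lower. Neil3, a DNA glycosylase gene, had 59 UMIs in MASLD and 1 in Aza-TdC (-7.34), Nusap1 of the spindle 53 and 1 (-7.19), and the noncoding RNA Lockd 71 and 2 (-6.61). Efcab11 had 36 and 0 UMIs and was at least 33.0-fold lower. These ratios share the MASLD library with the first comparison, so a low level in Aza-TdC and a high level in MASLD are read from the same counts.

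Because 59 MASLD nuclei carried these transcripts, the MASLD Kupffer nuclei were also set side by side by that count. The 59 had a median of 3210 UMIs and 24 marker UMIs, the other 53 had 2215 and 12. Cd163, at 516 and 489 CPM, and Csf1r, at 484 and 482, were close, and Clec4f stood at 2743 and 2220. Apoe stood at 4594 and 6093 CPM, Ctsd at 525 and 816, Cd74 at 448 and 759 and Gpnmb at 77.0 and 234, all lower in the 59 nuclei with cell cycle transcripts. Clec4f, Cd74 and Gpnmb are genes of the rule, so their levels here support nothing. The split also went with depth and is a description of 1 library.

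Genes of the p53 pathway were higher in Aza-TdC. This list, and that of the interferon-inducible GTPases further below, were added after values had been seen. Cdkn1a, the p53 target that encodes the cyclin-dependent kinase inhibitor p21, had 0 UMIs in SD, but 10 in MASLD (27.6 CPM, 13.3 to 50.8) and with treatment 163 (164 CPM, 139 to 191, in 108 nuclei). Its log2 ratio to MASLD was 2.57 (1.65 to 3.65). In all other nuclei Cdkn1a stood at 2.50, 10.7 and 9.81 CPM, in endothelial-rule nuclei at 6.81, 16.9 and 14.3, and in the few recruited-rule nuclei at 0, 12.6 and 52.5. Trp53cor1, a noncoding p53 target beside Cdkn1a on the opposite strand (chr17:29057430-29079179 and chr17:29090976-29100727, GRCm38), had 0, 2 and 65 UMIs (3.56, 1.65 to 6.64), and the use of strand in counting was not given in the sources used here.

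Of 23 tested p53 targets, 8 were higher and 1 lower (Ckap2, -5.27, a gene of the mitotic spindle), with a median of 0.59. Summed, the list stood at 2186 CPM in MASLD and 3801 in Aza-TdC in the Kupffer nuclei, and at 1136 and 1065 CPM in all other nuclei. Mdm2, the ubiquitin ligase that degrades p53, had 87.3, 146 and 323 CPM (1.14, 0.72 to 1.59), and Zmat3, an RNA-binding target, 0, 16.6 and 78.3 CPM (2.24). Pvt1, a noncoding gene beside Myc, had 851, 998 and 2029 CPM (1.02). It alone made up most of the rise of the summed list from MASLD to Aza-TdC. Aen, Sesn2 and Plk3 rose by 1.71, 1.54 and 1.15. With the nuclei of 3 or more cell cycle UMIs left out, a choice made after seeing the data, 4 targets were higher and 0 lower of 21 (Cdkn1a, Zmat3, Ei24 and Trp53cor1), with a median of 0.81.

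Interferon-related genes were higher in Aza-TdC as well. Irf7, which drives interferon genes, had 43.6, 30.4 and 66.2 CPM (1.12). Zbp1, a sensor of Z-form nucleic acids, had 0, 8.29 and 46.2 CPM (2.48, 0.84 to 4.81), on 3 UMIs in MASLD. Of 24 tested genes of the list, 4 were called higher, Gbp2 among them, and 0 lower, and the median was 0.56. The list summed to 3031 CPM in MASLD and 4716 in Aza-TdC in the Kupffer nuclei, and to 547 and 784 CPM in all other nuclei, so it was higher in both.

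The next list, also added after values had been seen, was of GTPases that interferons induce and that attack vacuoles of microbes. These GTPases had 6 genes higher and 0 lower of 14, with a median of 1.04. Summed, they stood at 669 CPM in MASLD and 1618 in Aza-TdC in the Kupffer nuclei, and at 175 and 428 CPM in all other nuclei, the same direction. Gbp4 had 1, 5 and 118 UMIs, or 21.8, 13.8 and 118 CPM (3.10, 1.84 to 4.75). Gbp2b had 240, 66.3 and 357 CPM (2.43, 1.83 to 3.09), so it was lowest in MASLD, where it had been called lower than in SD (-1.86). Iigp1 had 21.8, 130 and 278 CPM (1.10). Genes of this family are near copies of each other, so the split of reads between them is uncertain. In endothelial-rule nuclei Gbp4 stood at 30.6, 52.7 and 138 CPM and Iigp1 at 85.1, 120 and 482.

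**Figure D5:**
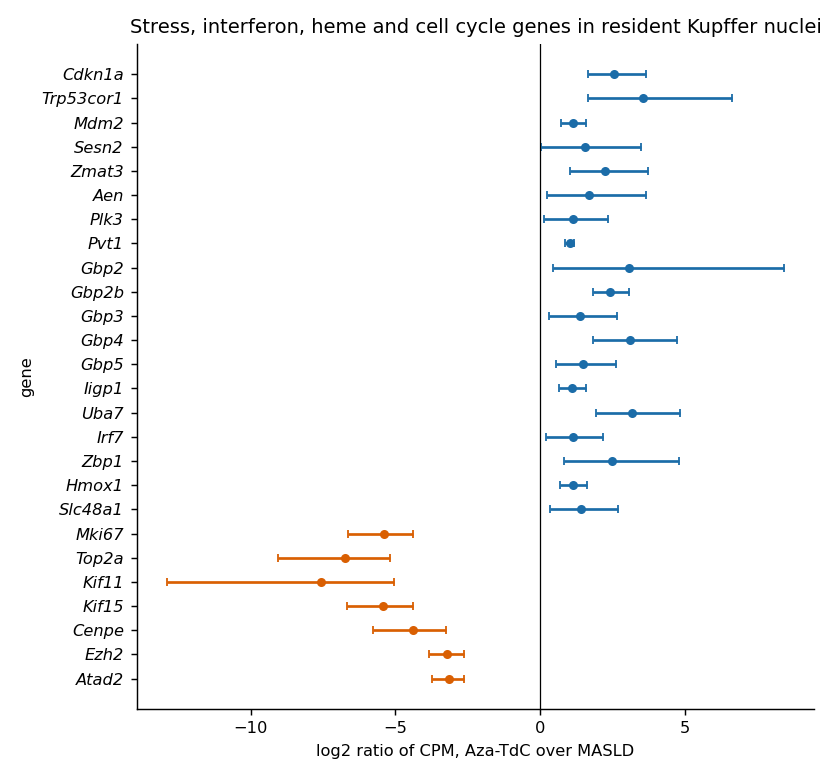
Log2 ratio of CPM, Aza-TdC over MASLD, in resident Kupffer nuclei for named genes that passed the call (blue higher, orange lower), as points with exact 95% intervals. It is a selection of called genes: Cdkn1a at 2.57 and Gbp4 at 3.10 are among the higher, and Mki67 at -5.40 and Top2a at -6.76 among the lower.

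Several Kupffer genes were higher in Aza-TdC than in MASLD. Of 20 tested identity genes outside the rule, 3 were higher and 0 lower, with a median of 0.47. Hmox1, the oxygenase that breaks down heme, had 131, 124 and 275 CPM (1.15, 0.69 to 1.63), and Gfra2, the receptor for neurturin, 87.3, 30.4 and 177 CPM (2.54). The third was Irf7. Cd163 had 506 and 712 CPM (0.49, 0.26 to 0.74) and did not pass the call, below the 1571 CPM of SD. Siglec1 had 87.3, 111 and 240 CPM (1.12). In the iron and heme list Hmox1 and Slc48a1, a heme transporter gene (65.5, 22.1 and 59.2 CPM, 1.42), rose and Fth1 fell (-1.33), of 16.

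Several macrophage genes that had been called higher in MASLD were lower in Aza-TdC. Apoe had 2480 CPM (2383 to 2579) against 5178, and fell by 1.06 (interval -1.15 to -0.97), a call that ended with median-ratio scaling. In all other nuclei it went from 2170 to 1426 CPM. C1qb fell by 1.33 (-1.54 to -1.11), from 928 to 370 CPM, and C1qc by 1.11, whereas C1qa, at 444 CPM, had -0.95 and did not pass the call. Tyrobp (205 and 98.3 CPM) and Fcer1g (298 and 123 CPM), the adaptors of activating receptors, were also lower but had not been called higher in MASLD. With them there were 0 higher and 4 lower of 21 macrophage core genes, with a median of -0.21. Among all tested genes at least 2 times above the other nuclei, 7.57% were higher and 13.9% lower. Genes called high in MASLD are set here against that same library, so a lower level in Aza-TdC is partly built in.

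Of 16 lipid-associated macrophage genes, 0 were higher and 5 lower, with a median of -0.87. Cd63, a tetraspanin of late endosomes, had 0, 55.3 and 8.03 CPM (-2.78), Cd36 478 and 156 CPM (-1.62), and Atp6v0d2, a proton pump subunit, 127 and 25.1 CPM (-2.34). Vim (-1.22) and Anxa2 (-1.28) were the others. Ctsd (638 and 347 CPM), Lpl (343 and 260 CPM) and Psap (1083 and 557 CPM) lay between their SD and MASLD levels and did not pass the call. Mmp12 stood at 85.7 and 100 CPM, with 79 of its 100 UMIs in Aza-TdC in 3 nuclei. The lysosome list had 0 higher and 1 lower of 25 (Atp6v1a), lipid handling 0 and 2 of 20 (Pparg at 268 and 108 CPM, and Cd36) and the LXR list 0 and 2 of 18 (Apoe and Arl4c). Cst3 fell by 2.23, from 334 to 71.3 CPM, and in recruited-rule nuclei it stood at 2025 and 262 CPM.

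Few survival and death genes were called, and in both directions. Bcl2l1, which encodes the anti-apoptotic BCL-XL, had 196, 191 and 433 CPM (1.18, 0.81 to 1.57), and Gsdmd, the pore protein of pyroptosis, 196, 88.4 and 259 CPM (1.55, 1.02 to 2.13). Map1lc3b, an autophagosome gene, fell by 1.15, and the list had 2 higher and 1 lower of 19. Of all genes tested, 5.14% were higher and 6.96% lower. Inflammation genes had 3 higher (Nlrp3, Relb and Cxcl10, the last on 33 UMIs in 4 nuclei) and 0 lower of 13. Antigen presentation had 3 higher (Tap2, Cd80 and Cd40) and 2 lower (H2-Aa, -1.44, and H2-Eb1) of 18. Recruited monocyte genes had 4 and 1 of 9, complement 2 and 4 of 15, scavenger and efferocytosis 1 and 2 of 18, BMP, TGF-beta and Notch genes 0 and 1 of 22, and immediate early genes 0 and 0 of 9. The lower complement genes included C1qb and C1qc, already counted in the macrophage core list.

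The highest genes of the ranking in Aza-TdC were of mixed kinds. Tshz2, a zinc finger homeobox gene, had 153, 60.8 and 470 CPM (2.95, 2.33 to 3.64) in the Kupffer nuclei and 268, 85.0 and 134 CPM in all others. Tmc3, a transmembrane channel-like gene, had 0, 2 and 96 UMIs (4.12, 2.23 to 7.19), and Dgki, a diacylglycerol kinase gene, 1, 13 and 248 (2.79, 1.99 to 3.72). Uba7, the enzyme that activates the ubiquitin-like ISG15, had 43.6, 13.8 and 125 CPM (3.18). Dscaml1, a cell adhesion gene, had 8.29 and 81.3 CPM (3.29, on 3 UMIs in MASLD), and Pde1c, a cyclic nucleotide phosphodiesterase gene, 55.3 and 243 CPM (2.14). Lilr4b had 116 and 521 CPM (2.17), uncertain because of a near-identical neighbour.

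Dnmt1, the enzyme named in the study's title, was barely detected in Kupffer nuclei. It had 1, 15 and 21 UMIs, or 21.8, 41.5 and 21.1 CPM, and its ratio of Aza-TdC to MASLD of -0.98 (-2.001 to 0.08) did not pass the call. It passed as lower under 2 of 15 alternatives, at -1.12 with the minimum depth of the SD library, chosen after seeing the data, and at -1.15 with free RNA subtracted. In all other nuclei Dnmt1 stood at 7.96, 9.19 and 10.2 CPM. RNA levels do not measure the enzyme, which the drug depletes as protein. Of 14 tested DNA methylation genes, 0 were higher and 2 lower, Mbd4, a thymine glycosylase gene, and Hells, a chromatin remodeller gene of dividing cells (52.5 and 9.03 CPM, -2.54). Dnmt3a, the de novo methyltransferase, had 502, 448 and 737 CPM.

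Within a library the nuclei were also set side by side by whether a Timd4 UMI was seen. A Timd4 UMI was seen in 12, 60 and 203 nuclei and in none of the other 4, 52 and 81. Those with one were deeper in MASLD and Aza-TdC (medians of 3222 against 2273 and 3298 against 2125 UMIs) and shallower in SD (2536 against 3635). Cd163 stood at 813 CPM with and 366 without in Aza-TdC, at 1888 and 926 in SD, and at 510 and 498 in MASLD. Mki67 in MASLD stood at 414 CPM with and 216 without. Marco in Aza-TdC stood at 361 CPM with and 203 without, but Timd4 and Marco are both genes of the rule, so this supports nothing.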

How the data were processed

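Nuclei from 120 mg of frozen mouse liver per library were sorted on DAPI and run with 10x Genomics 3' chemistry, per the labels' protocols. The authors deposited raw UMI counts per gene and nucleus (32285 features), and the file headers name Cell Ranger 6.1.2 as their source. The submitters' processing notes list Seurat 4.4.0, mm10 and GRCm38 with no role. The treatment of introns, strand, free RNA and doublets was not given in the sources used here.

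UMIs were summed over the resident Kupffer nuclei of each of 3 libraries and divided by their total (CPM). Intervals were exact: Poisson for levels, Clopper-Pearson for shares and conditional binomial for ratios, at 95%. No doublet caller was run, and 1 alternative leaves out nuclei over 2 times the median depth. Nuclei, lists and tests were chosen with earlier results of these data known, and 2 lists (p53 targets and GTPases) after values were seen. Genes named were the 12 highest and 12 lowest called per comparison by the interval end closest to 0, where the higher library had 30 UMIs or more and at least 2 times the CPM of other nuclei, leaving out rule, mitochondrial, ribosomal and unnamed genes. Up to 4 genes of each list, Dnmt1 and the 15 leading genes were added, and single genes beyond this were chosen after their values were seen. Some genes that the rule names are not reported here. Scripts were tested on simulated data. Tools were Python 3.11.15 with matplotlib 3.10.9, numpy 2.4.6, pandas 2.3.3 and scipy 1.17.1.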

Additional observations from a re-analysis of the deposited data

How the results depend on the processing

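No paired analysis was possible because each group is 1 library, and leaving out a replicate was not possible for the same reason. No called gene among those named changed direction under any alternative run. Of 36 shares under alternatives, 9 moved beyond the counting interval of the main value. The SD share was 8.03% with nuclei of few hepatocyte marker UMIs as the total. The MASLD share was 1.36% with at most 1% mitochondrial UMIs, 2.01% without the recruited clause, 1.24% thinned to 2000 UMIs and 23.0% of nuclei with few hepatocyte marker UMIs. The Aza-TdC share was 3.32% without nuclei over 2 times the median depth, 3.20% at the minimum depth of SD, 2.82% thinned and 52.4% of nuclei with few hepatocyte marker UMIs. The depth of SD and the removal of cell cycle or stellate nuclei were chosen after seeing the data.

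Of 68 gene counts, 12 moved by over 1.5 times. MASLD against SD had 518 higher and 124 lower with median-ratio scaling, 171 and 136 without nuclei of 3 or more cell cycle UMIs, and 446 lower with no minimum or 122 lower at 50 UMIs. Aza-TdC against MASLD had 288 higher and 277 lower at 50 UMIs, 777 and 934 at a 1.5-fold threshold, 937 lower with no minimum and 371 lower without cell cycle nuclei. Of 664 values of 43 list medians, 40 had the other sign, in 22 medians. With median-ratio scaling these were the scavenger, inflammation, interferon, cell death, immediate early and GTPase lists in MASLD against SD and the LXR list in Aza-TdC against MASLD. In both comparisons the medians of the cell cycle, lipid-associated macrophage, lysosome and macrophage core lists kept their sign in every alternative run. The calls of Apoe, Arl4c, Tyrobp, Atp6v1a, Mbd4 and H2-Eb1 in Aza-TdC against MASLD ended with median-ratio scaling. Of 699 values for named genes, 685 gave the same call, among them, in the comparison that names each, every alternative run for Ctsd, Grn, Lpl, Cd163, Cdkn1a, Gbp4, Mki67 and Top2a. Subtracting free RNA ended the calls of Kif15, Atad2 and G2e3 in MASLD against SD, and leaving out cell cycle nuclei ended those of Entpd1 and Cmip. The cause was not tested. With 45840 UMIs in 16 SD nuclei, only large differences from SD could be called.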
